A study of Mus musculus with 2 samples.

Results

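Voltage-gated sodium and calcium channel genes were described here as a set, across marker-gated neuron subtypes and glia of the mouse amygdala. Members were the genes whose Ensembl identifier maps to a symbol of the form Scn, a number and a or b, or to a symbol that begins with Cacna1, Cacna2d, Cacnb or Cacng. The rule found 40 of the 32285 genes in the files. They comprise 10 sodium channel alpha subunits, 4 sodium channel beta subunits, 10 calcium channel alpha-1 subunits, 4 alpha-2-delta subunits, 4 calcium channel beta subunits and 8 gamma subunits.

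Sodium channel alpha subunits form the pore that starts and carries action potentials, and sodium channel beta subunits modify its gating and anchor it to adhesion molecules. In calcium channels the alpha-1 subunit forms the pore, which admits the calcium that triggers transmitter release, shapes firing and signals to the nucleus. Beta and alpha-2-delta subunits bring that pore to the membrane. Most brain members of the gamma family, such as stargazin, are better known as transmembrane AMPA receptor regulatory proteins (TARPs), which traffic and gate the glutamate receptor.

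Single-nucleus RNA was profiled with version 2 of the 10x 5' kit, in 1 library from wild type mice (WT) and 1 library from mice labelled Sema6d-/- (KO). Both labels give C57BL6/J mice aged 6 to 8 weeks. The sources used here do not say how many animals a library pools, of which sex, or which stretch of Sema6d is deleted. Sema6d encodes a transmembrane semaphorin, a guidance molecule. With 1 library per genotype no difference between genotypes was tested, and each difference below is one between these 2 libraries, in which genotype, dissection and library preparation cannot be told apart.

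Counts are unique molecular identifiers (UMIs), summed over the nuclei of a gated type in a library and scaled to all UMIs of that type, in the usual unit CPM. Where 2 levels stand together, WT is first and KO second. Each ratio is the log2 of KO over WT. A range in brackets after it is an exact 95% interval that covers counting error only. A gene is called lower or higher where its log2 ratio exceeds 0.32 in size (the limit below), for genes with at least 100 UMIs over both libraries. Within neuron subtypes only the side of 0 is counted, as below 0 or above 0.

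After filtering, the WT library kept 10267 nuclei (77879366 UMIs) and the KO library 7921 (56881118 UMIs). Gates gave 4830 and 2877 GABA neurons, 940 and 773 glutamatergic neurons, 549 and 497 astrocytes, 598 and 1191 oligodendrocytes, 130 and 190 oligodendrocyte precursors, and 103 and 220 microglia. The 8 neuron subtypes with at least 50 nuclei in each library held 57 to 1299 nuclei. They covered most GABA neurons (72.5% in WT and 71.9% in KO) but only 29.1% and 30.5% of glutamatergic neurons. A highest or lowest type below is among these 8 subtypes and the 4 glial classes. Neurons without a described subtype were not ranked and may stand higher or lower. D1 medium spiny-like nuclei carried a median of 4 of the 6 intercalated-like markers, so these lists do not separate them sharply. Drd1 is in both lists and the D1 gate requires it, so part of this overlap is set by the gate. Median UMIs per nucleus were 7849 and 8225 in GABA neurons. The libraries shared 128 deposited barcodes, 110 of them among the kept nuclei. Sema6d stood at 681 and 726 CPM in GABA neurons. In glutamatergic neurons it stood at 571 and 675 CPM, so these counts do not show the deletion, and the names WT and KO are those of the labels.

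Promoter sequences are shown for Cacna1c and Scn8a, whose ratios were below 0 in all 8 neuron subtypes, and for Cacna2d1, whose ratios were above 0 in all 8. Cacna1a, Cacng2, Cacng4 and Cacng8 were also below 0 in all 8 but had no usable window. Cacna1c has 3 entries and Scn8a 2, of which only the 1 nearest the annotated gene start is shown. Each run lies just upstream of a transcription start in RefSeq (GRCm38.p6, the same build as mm10), is written 5′ to 3′ on the gene's strand, and has matches to the GC box GGGCGG, on either strand, in capitals. The Cacna1c window is chr6:119196419-119196659 on the minus strand, the Scn8a window is chr15:100870395-100870644 on the plus strand, and the Cacna2d1 window is chr5:15934441-15934690 on the plus strand.
Cacna1c: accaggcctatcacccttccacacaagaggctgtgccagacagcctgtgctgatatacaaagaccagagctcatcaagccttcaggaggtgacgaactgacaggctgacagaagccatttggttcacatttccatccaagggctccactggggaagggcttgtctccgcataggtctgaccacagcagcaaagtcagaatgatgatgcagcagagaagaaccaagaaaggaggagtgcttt
Scn8a: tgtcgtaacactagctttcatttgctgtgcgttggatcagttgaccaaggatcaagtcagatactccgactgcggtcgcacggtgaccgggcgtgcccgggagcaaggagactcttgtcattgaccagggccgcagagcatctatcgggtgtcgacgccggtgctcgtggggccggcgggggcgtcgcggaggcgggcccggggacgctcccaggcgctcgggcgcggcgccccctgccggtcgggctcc
Cacna2d1: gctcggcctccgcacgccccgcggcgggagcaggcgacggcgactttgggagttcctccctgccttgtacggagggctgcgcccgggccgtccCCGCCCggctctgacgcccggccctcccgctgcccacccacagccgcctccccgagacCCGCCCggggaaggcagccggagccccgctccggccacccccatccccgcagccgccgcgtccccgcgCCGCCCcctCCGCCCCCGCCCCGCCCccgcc
The Cacna2d1 stretch was 82.4% G and C and held 6 matches. The Scn8a stretch was 68% G and C and the Cacna1c stretch 51.9%, and neither held the letters GGGCGG or CCGCCC. The Scn8a window lies inside the gene's GENCODE span. Of 32851 promoter windows of this kind over all genes, 32.7% held a GC box, against 15 of 41 windows (36.6%) of the 30 members that matched. The core promoter element TATAAA was in 12.4% of all windows and 2 of the 41. The letters TGACGTCA, a cyclic AMP response element, were in 1.55% of all windows and in 0 of the 41. A match is a description of these letters and not of a factor's binding.

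Neurons of the amygdala carried a broad set of channel genes. In GABA neurons 33 of the 40 members had at least 100 UMIs, and in glutamatergic neurons 32 had. The 7 members under that level in both classes are channels best known from muscle, retina or peripheral sensory neurons. They were Cacna1s and Scn4a of skeletal muscle, Cacna1f of the retina, Scn10a and Scn11a of pain-sensing neurons, and Cacng1 and Cacng6, gamma subunits of muscle-type channels. Scn4a had 0 UMIs in GABA neurons of both libraries, which allows levels up to 0.0914 and 0.147 CPM (exact 95% upper limits). The UMIs of the others over both libraries ran from 11 for Cacna1s to 94 for Scn10a. Of the Scn10a UMIs, 72 were in intercalated-like neurons, at 4.28 and 5.71 CPM.

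Among sodium channel alpha subunits, narrow ranges over the neuron subtypes were seen for Scn2a, an axonal channel of many neurons, and Scn8a, the main channel of mature axon initial segments and nodes. Scn2a spanned 329 CPM to 390 CPM over the neuron subtypes in WT and 298 to 399 CPM in KO. Scn8a spanned 257 to 387 CPM in WT and 218 to 345 CPM in KO, and was highest in Rspo2 glutamatergic neurons in both. Scn1a, the channel that fast-spiking interneurons depend on, was highest in medial ganglionic eminence (MGE) interneuron-like cells, at 504 CPM (471 to 539) and 501 CPM (466 to 538). The next type reached 342 and 363 CPM, outside those intervals. Its lowest neuron subtype was Nr4a2 Ntng2 glutamatergic, at 103 and 134 CPM.

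Scn9a, known for its part in pain, had its highest level in Prlr Baiap3 GABA neurons, at 104 CPM (88.6 to 121) and 99.8 CPM (84.7 to 117). The next types stood at 60.8 and 59.7 CPM, outside those intervals. The gene lies on chromosome 2 (66480080 to 66634962, minus strand), in a cluster with Scn1a, Scn2a, Scn3a and Scn7a. Scn7a, a sodium-sensing relative, was highest of the ranked types in Rspo2 glutamatergic neurons, at 17.1 and 8.36 CPM, from only 28 and 10 UMIs. All glutamatergic neurons together stood at 12 and 10.7 CPM, above the Rspo2 level in KO. Over all GABA neurons Scn7a stood at 1.96 and 2.23 CPM.

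Sodium channel beta subunits were most unequal for Scn4b, which supports resurgent current and is typical of striatal projection neurons. Scn4b stood at 161 and 185 CPM in D2 medium spiny-like neurons, at 130 and 128 CPM in D1 medium spiny-like neurons, and at 10.4 and 10 CPM in Rspo2 glutamatergic neurons. Scn3b had its highest level in D2 medium spiny-like neurons too, at 96.7 and 103 CPM. For Scn2b the highest type was microglia in WT and D2 medium spiny-like neurons in KO, so its order was not stable between the libraries.

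The pore-forming calcium channel subunits differed in their highest types. Cacna1c, an L-type pore that couples activity to transcription, ranged over neuron subtypes from 648 CPM in MGE interneuron-like cells to 1468 CPM in D2 medium spiny-like neurons in WT, and from 597 to 1308 CPM over the same types in KO. Cacna1e, the R-type pore, was 1400 and 1245 CPM in Rspo2 glutamatergic neurons, and 273 and 334 CPM in MGE interneuron-like cells. Cacna1a, the P/Q-type pore of transmitter release, was highest of the ranked types in MGE interneuron-like cells, at 650 and 550 CPM. It was lowest among neuron subtypes in Nr4a2 Ntng2 glutamatergic cells, at 204 and 181 CPM. All glutamatergic neurons together stood at 632 and 541 CPM, above Rspo2 glutamatergic neurons at 552 and 493 CPM. Glutamatergic neurons outside the described subtypes thus stood higher than either subtype, and were not ranked against MGE interneuron-like cells.

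The 3 T-type pores, which open near rest and support burst firing, had different highest types. Cacna1g was highest in Nr4a2 Ntng2 glutamatergic neurons, at 136 and 98.3 CPM, and near the bottom in medium spiny-like neurons, at 5.44 and 9.84 CPM in the D1 type and 5.91 and 7.41 CPM in the D2 type. Cacna1g was also present in Prlr Baiap3 GABA neurons, at 80.3 and 66.3 CPM, beside 109 and 72.8 CPM in Rspo2 glutamatergic neurons. Cacna1h and Cacna1i were highest in medium spiny-like neurons. Cacna1h stood at 71.4 and 90 CPM in D1 medium spiny-like neurons and at 13.2 and 16.9 CPM in Nr4a2 Ntng2 glutamatergic neurons. Cacna1i was highest in D2 medium spiny-like neurons, at 92.3 and 82 CPM. In Rspo2 glutamatergic neurons it stood at 51.2 and 41 CPM, and in MGE interneuron-like cells at 23.5 and 29.8 CPM.

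In CPM, the widest ranges of the set were those of Cacnb2 and Cacna2d3, both auxiliary calcium channel subunits. All other ranked auxiliary subunits had narrower ranges than the pore gene Cacna1c. These ranges are not scaled to level or gene length. Cacnb2, a beta subunit, reached 4039 CPM (4001 to 4077) and 4225 CPM (4173 to 4279) in D2 medium spiny-like neurons. Its next type, D1 medium spiny-like, held 2081 and 1730 CPM, and MGE interneuron-like cells held 400 and 458 CPM. Cacnb4, the beta subunit whose loss causes the lethargic phenotype in mice, was highest in Nr4a2 Ntng2 glutamatergic neurons at 735 and 767 CPM. Cacnb1, best known as the beta subunit of skeletal muscle, had its highest levels of 76.2 and 74.7 CPM in D2 medium spiny-like neurons.

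The alpha-2-delta genes had distinct highest types. Cacna2d3 was highest in D1 medium spiny-like neurons at 3121 and 2921 CPM. Cacna2d1, the main binding partner of gabapentin, was highest of the ranked types in Nr4a2 Ntng2 glutamatergic neurons, at 730 and 830 CPM. It was lowest in MGE interneuron-like cells at 106 and 116 CPM. All glutamatergic neurons together stood at 806 and 860 CPM, so those outside the described subtypes stood higher still. Cacna2d2 was highest of the ranked types in MGE interneuron-like cells, at 248 and 146 CPM, where Cacna2d1 was lowest. In Nr4a2 Ntng2 glutamatergic neurons Cacna2d2 had 1 UMI in WT and 0 in KO.

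Gamma subunits peaked in several classes. Cacng4 was highest outside neurons, in oligodendrocyte precursors, at 390 and 347 CPM. Its highest neuron subtype, D2 medium spiny-like, held 89.8 and 71.3 CPM. Cacng5 was highest in intercalated-like neurons, at 42.9 and 43.4 CPM, above 22.2 and 26.5 CPM in the next type. Cacng3 was highest in Nr4a2 Ntng2 glutamatergic neurons at 301 and 246 CPM. Cacng2, stargazin, ranged over neuron subtypes from 87.7 to 164 CPM in WT and from 66.4 to 120 CPM in KO. Its highest type was MGE interneuron-like in WT and caudal ganglionic eminence (CGE) interneuron-like in KO. Cacng8 ranged from 38.7 to 59.7 CPM in WT and from 20 to 49.4 CPM in KO. Over the 34 members with enough UMIs to rank the 12 types (4 glial classes and 8 neuron subtypes), 23 had the same highest type in both libraries.

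**Figure D1:**
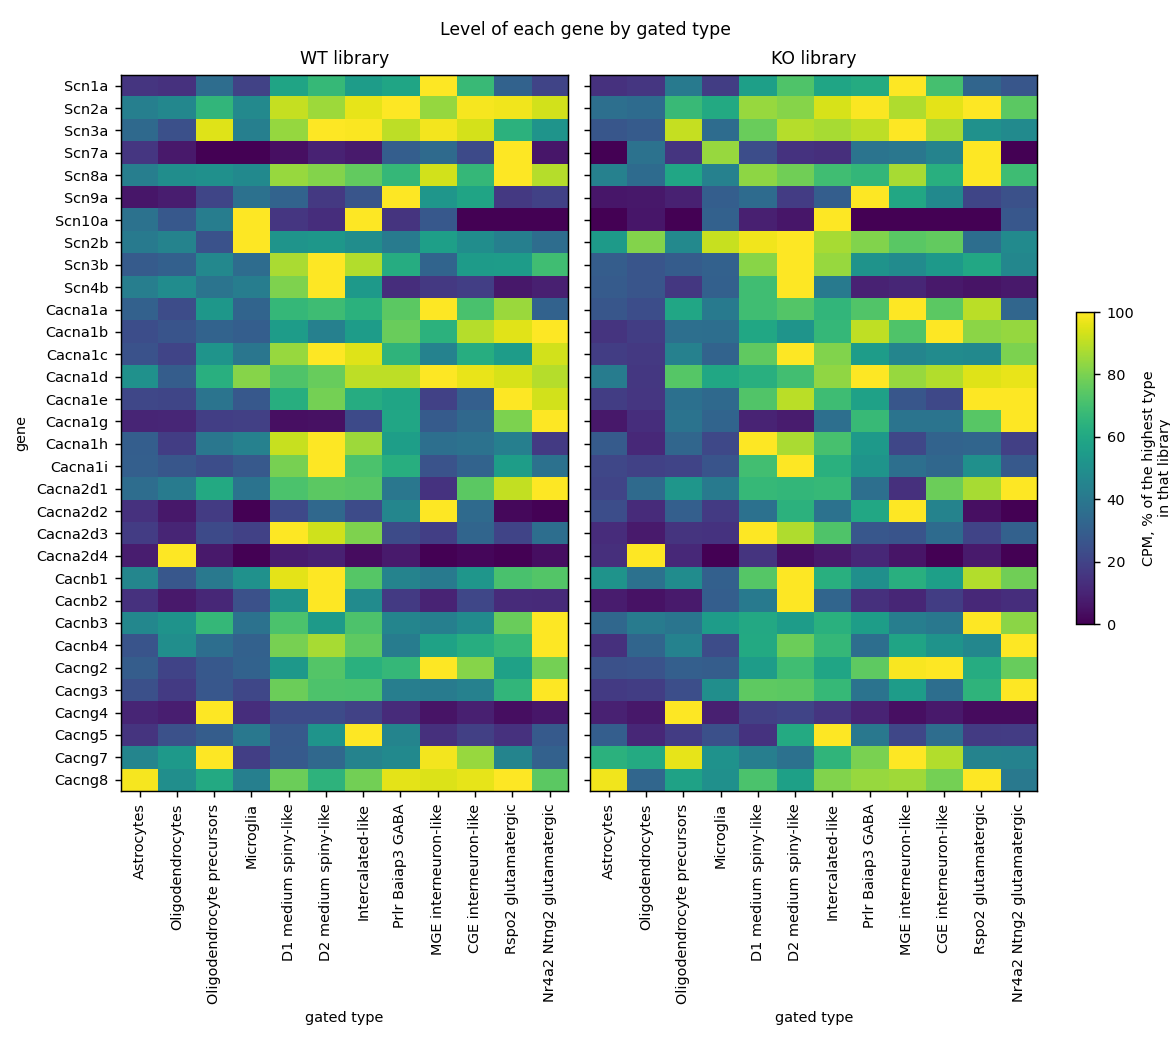
Colour gives each gene's CPM as a percentage of its highest type in the same library, with 32 genes as rows and the 12 gated types as columns, for WT on the left and KO on the right. The 2 panels share most of their bright cells, such as Cacna2d4 in oligodendrocytes, Cacng4 in oligodendrocyte precursors and Cacnb2 in D2 medium spiny-like neurons.

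In GABA neurons, calcium channel and TARP genes were more often lower in the KO library, and sodium channel genes were on both sides of 0. Cacna1c, Cacna1i, Cacna2d4, Cacng2, Cacng3, Cacng4 and Cacng8 were lower past the limit, which is 7 of 33 members or 21.2%, against 8.24% of all 13857 genes with as many UMIs. No member was higher, against 15.2% of all genes. The median ratio was -0.10 over the members and 0.04 over all genes, and 24 of 33 members were below 0 (72.7%, against 42.8%). For genes longer than 100 kb the median was 0.01 over all genes and -0.12 over the 19 members of that length. With the same weights of the subtypes in both libraries, 5 members were lower. Cacna1c, at -0.30, and Cacna1i, at -0.27, were then inside the limit. In nuclei thinned to 2000 UMIs 5 of 31 members were lower, and Cacna1i was at -0.25.

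By family, the GABA medians were 0.07 for 7 sodium channel alpha subunits, 0.05 for 4 sodium channel beta subunits, -0.12 for 8 alpha-1 subunits, -0.15 for 4 alpha-2-delta subunits, -0.21 for 4 calcium channel beta subunits and -0.36 for 6 gamma subunits. All 6 gamma subunits were below 0 and 4 of them were lower past the limit. These 4, Cacng2, Cacng3, Cacng4 and Cacng8, are the type I TARPs, a grouping made here after their values had been seen. The 2 type II TARPs were nearer 0, Cacng5 at -0.04 and Cacng7 at -0.08.

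Cacng4 stood at 73.1 and 50.6 CPM, a ratio of -0.53 (-0.63 to -0.43). Cacng3 stood at 197 and 149 CPM, a ratio of -0.40 (-0.46 to -0.35). Cacng2 stood at 114 and 86.8 CPM, a ratio of -0.39 (-0.46 to -0.31). The intervals for all 3 lie below 0 by more than their own width. Cacng8, the TARP typical of hippocampal AMPA receptors, stood at 46.3 and 36.6 CPM, a ratio of -0.34 (-0.45 to -0.22).

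Among pore subunits in GABA neurons, Cacna1c (ENSMUSG00000051331, chromosome 6, 118587240 to 119196418) stood at 1274 and 1001 CPM, a ratio of -0.35 (-0.37 to -0.33). Cacna1i stood at 70.3 and 56.1 CPM, a ratio of -0.32 (-0.42 to -0.23), just past the limit. Cacna2d4 had only 71 and 33 UMIs, at 1.76 and 1.31 CPM, a ratio of -0.42 whose interval (-1.06 to 0.19) includes 0 and which became 0.07 in nuclei thinned to 2000 UMIs. Just inside the limit were Cacna2d3, at 2356 and 1950 CPM (-0.27), and Cacnb2, at 2360 and 1963 CPM (-0.27). Both were higher in medium spiny-like and intercalated-like neurons than in the other subtypes, and with equal subtype weights their ratios were -0.21 and -0.17. Within intercalated-like neurons alone the ratios were -0.25 and -0.49. The part of subtype mix in these ratios was not tested.

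Presynaptic pore genes differed less in GABA neurons. Cacna1a stood at 460 and 407 CPM (-0.18, -0.21 to -0.14), and Cacna1b, the N-type pore, at 192 and 194 CPM (0.02, -0.03 to 0.07). Cacna1d, the second brain L-type pore, stood at 347 and 318 CPM (-0.12), and Cacna1e at 856 and 794 CPM (-0.11). Cacna2d1 stood at 472 and 464 CPM (-0.03) and Cacna2d2 at 88 and 87.6 CPM (-0.01). Calcium channel beta subunits were all below 0, from -0.27 for Cacnb2 to -0.10 for Cacnb3, with Cacnb4 at 548 and 475 CPM (-0.20) and Cacnb1 at 60.1 and 52 CPM (-0.21).

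Of the sodium channel alpha genes in GABA neurons, Scn8a was the most different, at 308 and 260 CPM (-0.25, -0.29 to -0.20). Scn1a stood at 327 and 351 CPM (0.10, 0.06 to 0.14), Scn2a at 356 and 358 CPM (0.01), and Scn3a, a channel of immature neurons, at 153 and 143 CPM (-0.10). The highest ratios among all members in this class were 0.19 for Scn7a, with an interval from -0.33 to 0.70, and 0.16 for Scn9a and for Cacna1g. Scn9a stood at 37 and 41.3 CPM and Cacna1g at 24.2 and 27.1 CPM. All 4 sodium channel beta subunits were within 0.10 of 0, among them Scn2b at 46.9 and 50.4 CPM, Scn3b at 79.5 and 79.2 CPM and Scn4b at 103 and 97.9 CPM.

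**Figure D2:**
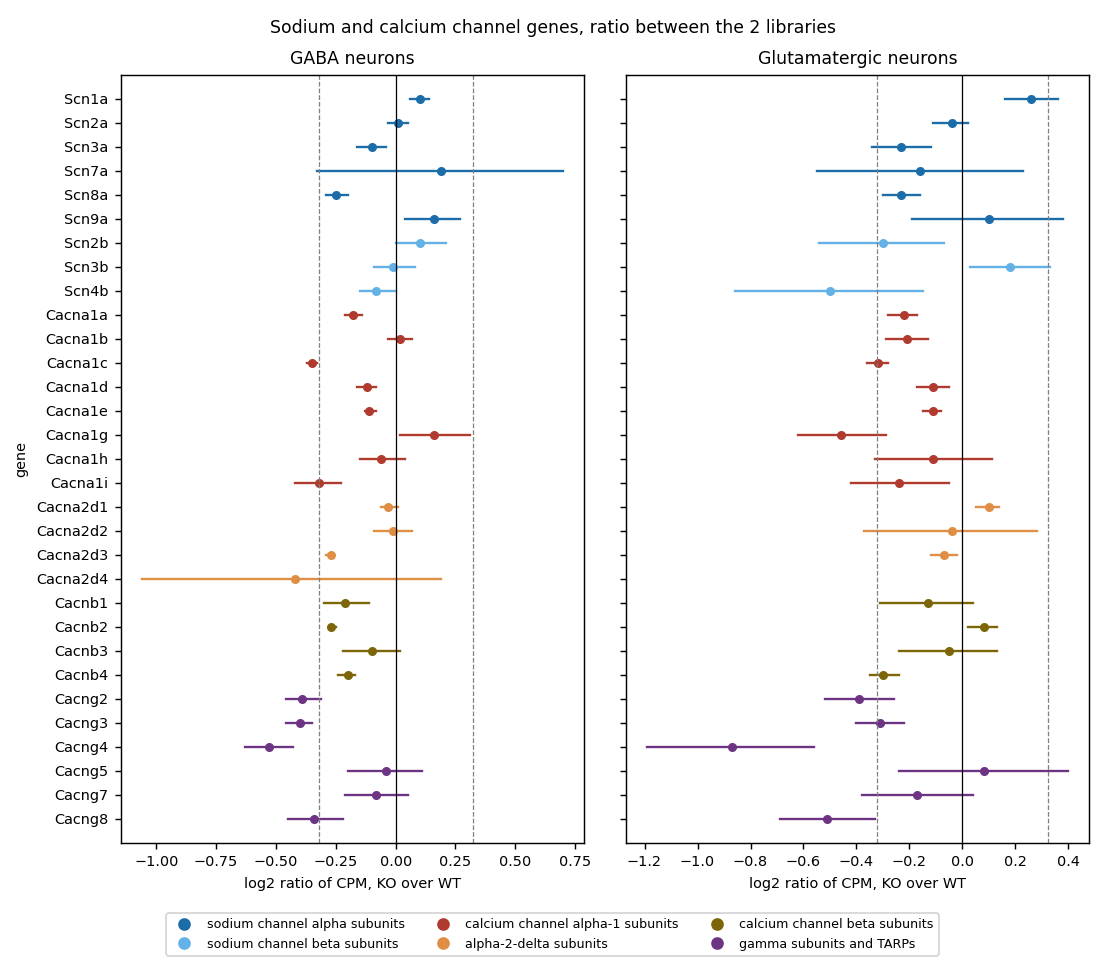
Points are log2 ratios of CPM, KO over WT, for 31 members in GABA neurons (left) and 30 in glutamatergic neurons (right), with exact 95% intervals for counting error, coloured by family, and dashed lines at the limit. Gamma subunits reach furthest left in both panels, to -0.53 and -0.87 for Cacng4, and no point lies past the right dashed line.

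In glutamatergic neurons, Cacna1g, Cacng2, Cacng4, Cacng8 and Scn4b were lower past the limit. That is 5 of 32 members, or 15.6%, against 10.2% of all 11178 genes. No member was higher, against 14.1%. The median over members was -0.15 and over all genes 0.02, and 24 of 32 members were below 0 (75%, against 47.1%). In thinned nuclei 6 of the 25 members that still had 100 UMIs were lower, and only 1 of these was among the 5. With median-of-ratios scaling 9 of 32 were lower.

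Gamma subunits again had the lowest family median, -0.35 over 6, and 3 of them were lower past the limit. Cacng4 stood at 24.4 and 13.3 CPM, from 259 and 123 UMIs, a ratio of -0.87 (-1.19 to -0.56). Its levels were higher in astrocytes, at 41.1 and 31.6 CPM, and in oligodendrocytes, at 32.5 and 22.7 CPM. The part of RNA from other cells in the Cacng4 ratio was not tested. Cacng8 stood at 62.8 and 44.2 CPM, a ratio of -0.51 (-0.69 to -0.33). Cacng2 stood at 114 and 86.9 CPM, a ratio of -0.39 (-0.52 to -0.26), which became -0.04 in thinned nuclei. Cacng3, at 255 and 206 CPM (-0.31, -0.40 to -0.22), was just inside the limit. Cacng7 stood at 40.4 and 35.8 CPM (-0.17) and Cacng5 at 16.2 and 17.1 CPM (0.08).

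All 8 alpha-1 subunits measured in glutamatergic neurons were below 0, with a median of -0.22. Cacna1g stood at 73.5 and 53.5 CPM, a ratio of -0.46 (-0.62 to -0.29), or -0.28 in thinned nuclei. Cacna1c stood at 1161 and 932 CPM (-0.32, -0.36 to -0.28), just short of the limit. Cacna1a stood at 632 and 541 CPM (-0.22), Cacna1b at 281 and 243 CPM (-0.21), and Cacna1e at 1319 and 1218 CPM (-0.11). The other calcium channel families were nearer 0, with medians of -0.04 for 3 alpha-2-delta subunits and -0.09 for 4 beta subunits. Cacnb4, at 572 and 466 CPM (-0.30), had the lowest ratio of those 7 and Cacna2d1, at 806 and 860 CPM (0.10, 0.05 to 0.14), the highest.

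Sodium channel genes in glutamatergic neurons had the highest and some of the lower ratios of the set. Scn1a stood at 160 and 192 CPM (0.26, 0.16 to 0.36) and Scn3b at 67.1 and 76.1 CPM (0.18, 0.03 to 0.33). Scn9a stood at 20.2 and 21.6 CPM (0.10, -0.19 to 0.38). Scn4b was low in this class, at 16.9 and 11.9 CPM (-0.50, -0.86 to -0.15). It was higher in astrocytes, at 68.6 and 53.3 CPM, and in oligodendrocytes, at 78 and 49.1 CPM. The part of RNA from other cells in the Scn4b ratio was not tested. Scn8a stood at 379 and 322 CPM (-0.23, -0.30 to -0.16) and Scn3a at 139 and 119 CPM (-0.23).

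Other measures also differed between the libraries in these neurons. The median mitochondrial percentage per nucleus was 0.679 in WT and 0.315 in KO in GABA neurons, and 0.558 and 0.192 in glutamatergic neurons. Arc, an activity-induced gene, stood at 26.3 and 9.32 CPM in GABA neurons and at 42.5 and 15.2 CPM in glutamatergic neurons. The 6 astrocyte markers summed to 689 and 649 CPM in GABA neurons, the 6 oligodendrocyte markers to 116 and 155 CPM, the 6 precursor markers to 1212 and 1341 CPM, and the 6 microglial markers to 31.2 and 43.2 CPM, with none at 0. In glutamatergic neurons these sums were 293 and 296, 79 and 108, 1607 and 1612, and 29 and 36.7 CPM, again with none at 0. In their own classes they were 5492 and 6667, 11552 and 13118, 9042 and 10591, and 5218 and 6068 CPM. The part of these measures in the channel ratios was not tested.

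**Figure D3:**
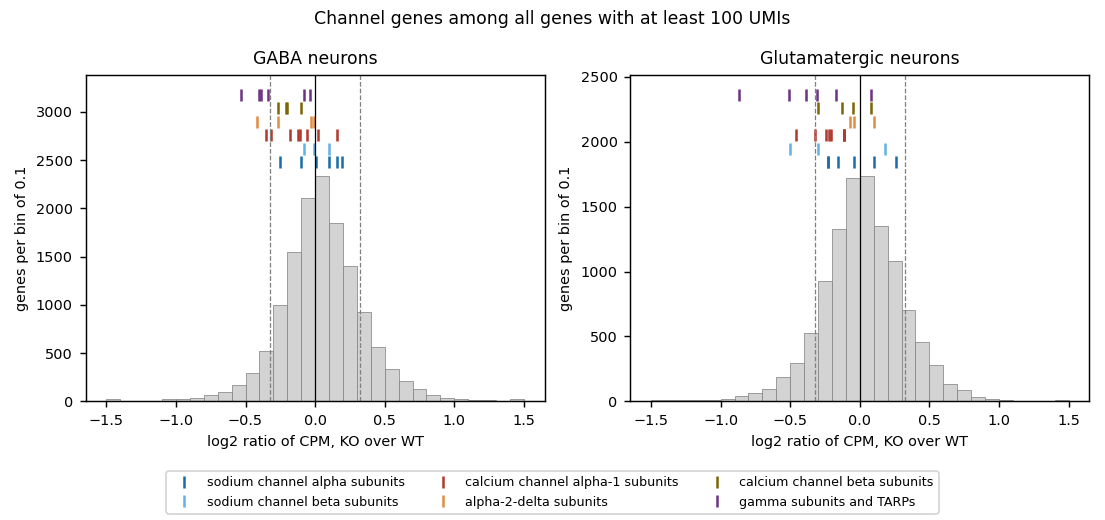
Grey bars count all genes with at least 100 UMIs by log2 ratio of CPM, KO over WT, in bins of 0.1 with all values beyond 1.5 in size put in the end bins, for GABA neurons (left) and glutamatergic neurons (right), coloured ticks are 31 and 30 of the members, 1 row per family, and dashed lines mark the limit. The 5th to 95th percentile of all genes runs from -0.41 to 0.55 in GABA and from -0.46 to 0.51 in glutamatergic neurons, so most members lie within the bulk and left of its middle.

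Within the 8 neuron subtypes, the side of 0 was counted for genes with at least 20 UMIs in each subtype, whatever the size of the ratio. Of 28 such members, 6 were below 0 in all 8 (21.4%, against 7.42% of all 8313 genes). They were the pore genes Cacna1a, Cacna1c and Scn8a and the TARP genes Cacng2, Cacng4 and Cacng8. One member, Cacna2d1, was above 0 in all 8 (3.57%, against 7.46%). The subtypes of a library share its preparation, so they are not replicates of the genotype. Sst stood at 334 and 601 CPM in MGE interneuron-like cells and at 92.7 and 28.6 CPM in CGE interneuron-like cells, where 56.9% and 51.7% of nuclei had only the minimum of 3 markers. The part of these shifts in the ratios of the 2 types was not tested.

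Cacna1c ranged from -0.54 in CGE interneuron-like cells, at 915 and 631 CPM, to -0.12 in MGE interneuron-like cells, at 648 and 597 CPM. In D2 medium spiny-like neurons, where it was highest, it stood at 1468 and 1308 CPM (-0.17, -0.21 to -0.13), and in intercalated-like neurons at 1394 and 1061 CPM (-0.39, -0.44 to -0.35). These 2 intervals do not overlap, and the difference between the subtypes was not tested over animals. Cacna1a lay between -0.28 and -0.15, the narrowest band of the 6. Scn8a lay between -0.53 in Nr4a2 Ntng2 glutamatergic neurons, at 344 and 238 CPM, and -0.16 in Rspo2 glutamatergic neurons, at 387 and 345 CPM.

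The TARP genes had fewer UMIs and wider intervals in the subtypes. Cacng2 was lowest in intercalated-like neurons, at 104 and 70.6 CPM (-0.57, -0.74 to -0.39), and nearest 0 in CGE interneuron-like cells, at 134 and 120 CPM (-0.16, -0.43 to 0.11). Cacng4 ranged from -1.18 in Nr4a2 Ntng2 glutamatergic neurons, where the interval reached from -2.64 to 0.08, to -0.33 in D2 medium spiny-like neurons, at 89.8 and 71.3 CPM. Cacng8 ranged from -1.16 in Nr4a2 Ntng2 glutamatergic neurons to -0.23 in intercalated-like neurons. Cacng3 was below 0 in 7 of 8 subtypes, the exception being MGE interneuron-like cells at 125 and 136 CPM (0.12, -0.16 to 0.41).

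Cacna2d1 had small positive ratios, from 0.01 in D2 medium spiny-like neurons, at 545 and 549 CPM, to 0.23 in CGE interneuron-like cells, at 547 and 643 CPM (0.11 to 0.36). All were inside the limit, and the interval included 0 in 6 of the 8 subtypes. Its ratio over all GABA neurons, a sum that also holds nuclei without a subtype, was -0.03. Cacna2d2 had its lowest ratio in MGE interneuron-like cells, where it is highest, at 248 and 146 CPM (-0.76, -1.01 to -0.53). In the same cells, beside the Sst values above, Pvalb stood at 30 and 14.6 CPM, and the part of these shifts in the Cacna2d2 value was not tested. Cacnb2 stood at 0.07 in D2 medium spiny-like neurons and at -0.49 in intercalated-like neurons, from 1943 and 1383 CPM. Scn4b was below 0 in 7 of 8 subtypes, with D2 medium spiny-like neurons at 0.20 (0.09 to 0.31).

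**Figure D4:**
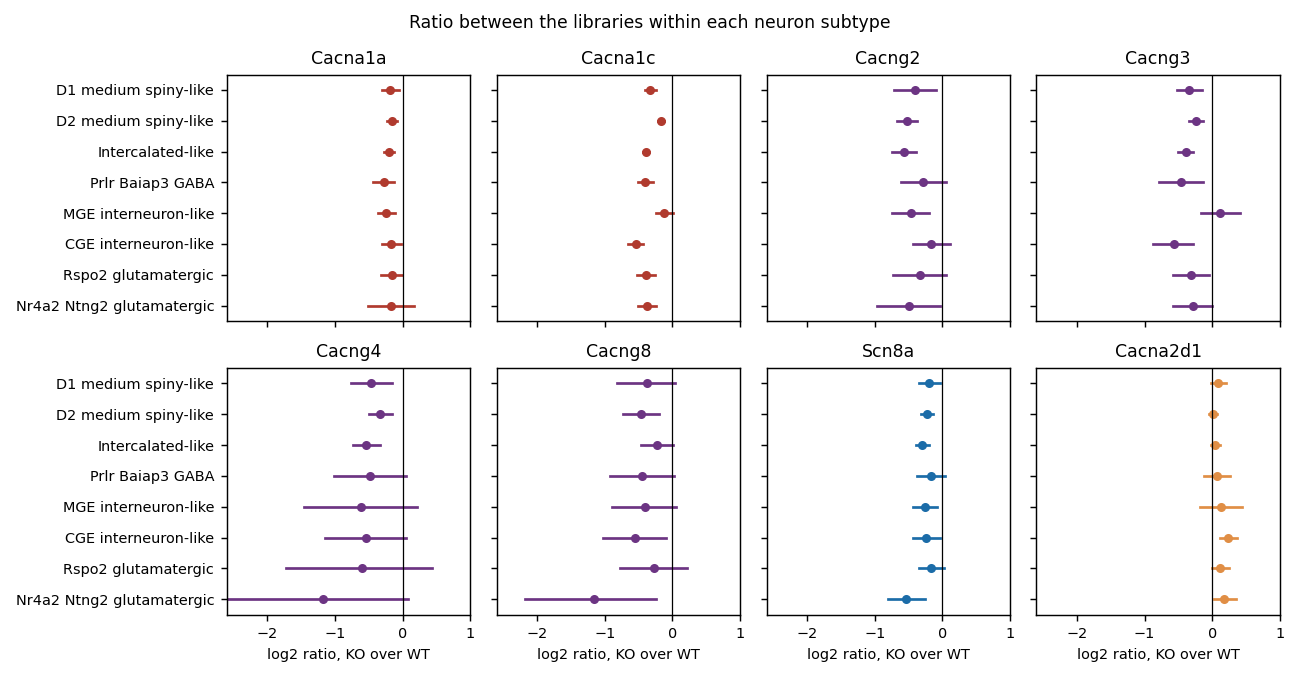
Each panel plots 1 gene's log2 ratio of CPM, KO over WT, in the 8 neuron subtypes, with exact 95% intervals for counting error, the lowest of which ends beyond the axis at -2.64, and a line at 0. Every point is left of 0 for Cacna1a, Cacna1c, Cacng2, Cacng4, Cacng8 and Scn8a, Cacng3 has 1 point to the right, at 0.12, and every Cacna2d1 point is to the right.

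In glia, 2 members stood far above the background of neuronal genes, Cacna2d4 in oligodendrocytes and Cacng4 in oligodendrocyte precursors. The background was read from 6 pan-neuronal genes that glia should lack, and its source was not tested. These 6 genes are also part of the neuron gate, and nuclei that met both a neuron and a glial gate were left out. Their percentages in glia are thus partly set by the gates, while channel genes were not used for gating. A channel gene's place above them is therefore also partly set by the gates. Another reading, the sum of Gad1, Gad2 and Slc32a1, which are gate genes too, gave 22.8% to 30.5% of the GABA neuron level over the glial classes in WT. In KO it gave 24.2% to 32.8%. The 6 pan-neuronal genes stood in astrocytes at 29.1% to 45.2% of their neuronal CPM in WT and 24.5% to 35.2% in KO. In oligodendrocytes they stood at 26.2% to 46.3% and 20.9% to 36.7%. In oligodendrocyte precursors they reached 60.1% and 61%, and in microglia 48.4% and 62.7%. Members had medians of 44.1% and 36.5% of their neuronal level in astrocytes and of 40.4% and 37% in oligodendrocytes. Some of the 24 members with enough UMIs in each of these classes were above every pan-neuronal gene. The share of all genes above them was not counted, so no result about the members is drawn from this.

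Cacna2d4 (ENSMUSG00000041460, chromosome 6, 119236526 to 119352407), an alpha-2-delta gene known from photoreceptors, was at 26.6 CPM (19.4 to 35.6) and 22.7 CPM (17.5 to 28.9) in oligodendrocytes. That is 1761% and 2047% of its neuronal level, from 45 and 65 UMIs. It neighbours Cacna1c on chromosome 6. Its ratio in oligodendrocytes was -0.23 (-0.80 to 0.35). Cacng4 (ENSMUSG00000020723, chromosome 11, 107732357 to 107794557) in oligodendrocyte precursors was at 619% and 853% of its neuronal level. There its ratio was -0.17 (-0.43 to 0.10), beside -0.53 and -0.87 in the neuron classes, and the difference between classes was not tested.

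Some members lay above every pan-neuronal gene without reaching both neuron classes in both libraries. Cacng8 in astrocytes stood at 58.9 and 48.3 CPM, 118% and 125% of the summed neuronal level. Cacnb2 in microglia stood at 998 and 1259 CPM, 50.5% and 79.5% of the neuronal level, and its ratio there was 0.34 (0.12 to 0.56), beside 0.21 (0.09 to 0.34) for the summed pan-neuronal genes. Scn3a in oligodendrocyte precursors was at 100% and 114% of the neuronal level. By contrast Cacnb2 and Cacna2d3 in oligodendrocytes were at 14% and 15.8% in WT, below every pan-neuronal gene.

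**Figure D5:**
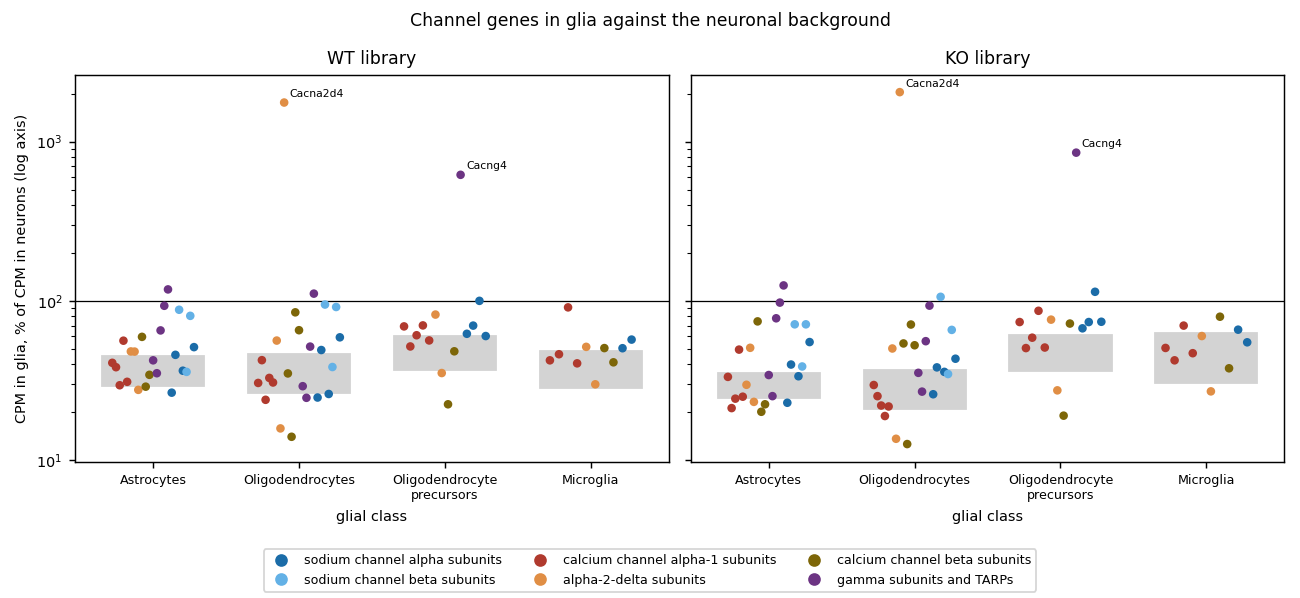
Points are channel genes with at least 100 UMIs in a glial class, as a percentage of their CPM in neurons on a log axis, for WT (left) and KO (right), and grey boxes span the 6 pan-neuronal genes. Cacna2d4 in oligodendrocytes (1761% and 2047%) and Cacng4 in oligodendrocyte precursors (619% and 853%) stand above all other points.

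The ratios in astrocytes and oligodendrocytes lay further below 0 than in neurons. In astrocytes 12 of 24 members were lower (50%, against 16.2% of all genes) and 1 was higher (4.17%, against 14%), with a median of -0.33. In oligodendrocytes 13 of 24 were lower (54.2%, against 14.7%) and 2, Cacnb1 and Scn3a, were higher (8.33%, against 16.4%), also with a median of -0.33. The astrocyte median was -0.52 over the 10 members with at least 300 UMIs. The oligodendrocyte median was -0.65 over 28 members under the loose gate and -0.50 over the 12 with at least 300 UMIs. The summed pan-neuronal genes had ratios of -0.29 (-0.36 to -0.23) in astrocytes and -0.12 (-0.18 to -0.06) in oligodendrocytes. Of all genes over 100 kb, 21.6% were lower in astrocytes and 23.5% in oligodendrocytes, and 15 of the 24 members in each are that long. The part of neuronal RNA in the member ratios was not tested.

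Cacna1c was lower in all 4 glial classes. It stood in astrocytes at 369 and 238 CPM (-0.63, -0.81 to -0.45) and in oligodendrocytes at 299 and 216 CPM (-0.47). In oligodendrocyte precursors it stood at 760 and 577 CPM (-0.40), and in microglia at 578 and 415 CPM (-0.48). In the same order these levels were 29.5% and 24.3%, 23.9% and 22%, 60.8% and 58.7%, and 46.2% and 42.3% of its neuronal level. In no class did Cacna1c lie above every pan-neuronal gene in both libraries. The part of neuronal RNA in these ratios was not tested. In oligodendrocyte precursors 3 of 14 members were lower, Cacna1c, Cacna2d3 and Cacnb2 (21.4%, against 15.3%), and Cacnb4 was higher (7.14%, against 13.9%). In microglia 4 of 10 were lower (40%, against 21.9%) and 2 higher (20%, against 20.7%), from 1748 genes with enough UMIs.

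Channel partners, a list of 44 genes of which 41 were found, give the setting of these values. It holds intracellular FGFs and ankyrins that bind sodium channels, active zone scaffolds, calmodulins, small GTPases that inhibit calcium channels, intracellular calcium release channels, and calcium pumps and exchangers. In GABA neurons 3 of 38 were lower, beside 8.24% of all genes, and none was higher, beside 15.2%, with a median of -0.12. Itpr1, the inositol trisphosphate receptor, stood at 616 and 476 CPM (-0.37, -0.40 to -0.34). Ryr3, a ryanodine receptor, stood at 1376 and 1070 CPM (-0.36), and Rem2, an inhibitory GTPase, at 18.4 and 14.5 CPM (-0.34). Fgf13, which binds sodium channel tails, stood at 208 and 259 CPM (0.32, 0.27 to 0.36), just inside the limit.

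In glutamatergic neurons 6 of 35 partners were lower, beside 10.2% of all genes, and 1 was higher, beside 14.1%, with a median of -0.14. Stac2, an adaptor of L-type channels, stood at 21.2 and 14.3 CPM (-0.57, -0.89 to -0.25). Bsn, which encodes the active zone scaffold bassoon, stood at 285 and 209 CPM (-0.45, -0.53 to -0.36). Itpr1 stood at 405 and 308 CPM (-0.40) and Ryr1 at 12.7 and 16.7 CPM (0.39, 0.05 to 0.74). The other 3 lower partners were Calm3, Atp2b2 and Rimbp2, at -0.37, -0.34 and -0.32. Ank3, the anchor of sodium channels at the axon initial segment, stood at -0.20 in GABA neurons and -0.12 in glutamatergic neurons.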

How the data were processed

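Single-nucleus RNA was measured in 2 amygdala samples, WT and KO. The deposited values are raw UMI counts per gene and barcode, made by the authors with Cell Ranger 6.0.0 and mm10, per the submitters' processing notes. The handling of intronic reads is not given in the sources used here. Symbols were assigned by identifier to 32158 genes, and 127 had none. Positions are from GENCODE, and promoter sequences from RefSeq, GRCm38.p6. Of the members, 5 overlap another protein-coding gene, none on the same strand.

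Left out were barcodes below 500 genes (12 and 143, WT first), barcodes above 5% mitochondrial UMIs (259 and 428), and doublets called by Scrublet in scanpy 1.11.5 (524, or 4.86%, and 212, or 2.61%). The deposited totals were 85124128 and 60402979 UMIs. A nucleus entered a glial class or GABA subtype with at least 3 of its listed markers. GABA neurons needed 2 UMIs of GABA genes and 4 times those of vesicular glutamate transporters, glutamatergic neurons the converse. Nuclei meeting more than 1 class gate (550 and 590) were left out, and 2516 and 1492 met none. UMIs were summed per type and library, in Python 3.11.15 with numpy 2.4.6, scipy 1.17.1 and pandas 2.3.3, and the code was tested on simulated data. Endothelial, mural and fibroblast gates held fewer than 50 nuclei in each library, and 3 neuron subtypes did so in at least 1. These are not described.

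Members entered the counts and medians of a type where they had at least 100 UMIs in it. The values of 2 are not reported here or drawn in the figures. By rule, other values are given for the 5 lowest and 5 highest ratios in each neuron class, for the 3 members of a family with the widest range over types, for members in glia at or above both neuron classes, and for up to 4 partners per neuron class. All others named were picked with their values in view. The members, marker lists, partner list and tests were chosen with earlier results of these data known.

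Alternatives were scaling by median of ratios, scaling by edgeR's TMM (edgeR 4.0.16, run under R 4.3.3), minimums of 1 UMI (a count of 0 then set to 3) or 300 UMIs, a strict and a loose gate, 1000 genes per nucleus, doublets kept, nuclei thinned to 2000 UMIs, and equal subtype weights.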

Additional observations from a re-analysis of the deposited data

Results flagged for a closer look

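Cacna1g and Cacnb2 had opposite directions in the 2 neuron classes, each with an interval clear of 0. The share of all genes with opposite directions was not counted. Cacna1g, a T-type pore gene, had a ratio of 0.16 (0.02 to 0.31) in GABA neurons and -0.46 in glutamatergic neurons. Over its alternatives the GABA value ran from -0.01 to 0.18 and the glutamatergic value from -0.60 to -0.28. Cacnb2, a beta subunit gene, had a ratio of -0.27 in GABA neurons and 0.08 (0.02 to 0.13) in glutamatergic neurons. With equal subtype weights the GABA value was -0.17, and the glutamatergic value ran from 0.05 to 0.17 over its alternatives. With 1 library per genotype, neither difference between classes was tested.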

How the results depend on the processing

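Of 87 counts and medians recomputed under the alternatives, 81 stayed within 1.5 times the reported count or within the members' median counting error of the reported median. Members higher in GABA neurons went from 0 to 3 with a minimum of 1 UMI and to 1 under the strict gate. In glutamatergic neurons they went from 0 to 1 under each of these. Members lower in glutamatergic neurons went from 5 to 9 with median-of-ratios scaling and to 8 with a minimum of 1 UMI, and ranged from 4 to 9, while those in GABA neurons ranged from 5 to 8. The median over members ran from -0.15 to -0.06 in GABA neurons, -0.21 to -0.11 in glutamatergic neurons, -0.52 to -0.3 in astrocytes, -0.65 to -0.27 in oligodendrocytes and -0.12 to 0.01 in oligodendrocyte precursors. The astrocyte and oligodendrocyte medians thus moved by over 1.5 times, with a minimum of 300 UMIs and, in oligodendrocytes, under the loose gate. Of 650 ratios of single members, 588 stayed within their counting interval, 61 left it and 1 called ratio changed sign, that of Cacna2d4 in GABA neurons, 0.07 in thinned nuclei. Scaling moved the median of all genes by at most 0.05. The causes were not tested. No paired analysis was possible because each genotype has 1 library, and for the same reason no library could be left out. Members at low counts, such as Cacna2d4 and Scn7a, are limited by depth, and intervals cover counting error only.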
